A study of Rattus norvegicus with 17 samples.

Results

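The genes described here were 10 transcripts that mark astrocytes or serve glutamate clearance in the brain: Gfap, Aqp4, Slc1a2, Slc1a3, Aldh1l1, S100b, Gja1, Gjb6, Glul and Sox9. They were chosen by name from the 34322 genes of the count table, and 10 of 10 were found and passed the filter on low counts in every comparison. RNA was sequenced from the hippocampus of 17 Long-Evans rats aged 36 to 38 days. In the ET group (n = 5, 3 males and 2 females) the dam had drunk a liquid diet with 6.7% ethanol from gestational day 0 to 20. In the PF group (n = 6, 3 males and 3 females) the dam was pair-fed, receiving the liquid diet without ethanol in an amount yoked to an ET dam, and in the AD group (n = 6, 3 males and 3 females) the dam ate standard chow freely. All dams had chow after birth. Each group came from 1 litter, so diet and litter cannot be told apart, and p-values measure the spread between littermates only.

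Astrocytes surround synapses and blood vessels and take up the glutamate that neurons release. The transporters encoded by Slc1a2 and Slc1a3 carry glutamate into the cell, glutamine synthetase (Glul) turns it into glutamine, and glutamine returns to neurons. Connexins (Gja1, Gjb6) join astrocytes into a network, Aqp4 moves water at vessels, and Gfap is the intermediate filament that rises when astrocytes become reactive.

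Counted fragments per library ranged from 10853947 to 17498392 (median 13538433). Values below are normalized counts, that is deposited counts scaled by TMM to the mean effective library size, so each gene may be compared between libraries but not with another gene. The lowest deposited count of any of the 10 genes in any library was 269. The study's final analysis left out 3 libraries (ET replicate 2, PF animal 11f6 and AD replicate 4), and the fits below use the other 14 (ET 4, PF 5, AD 5). In those 3, Ttr, the choroid plexus transthyretin gene, was at 87690, 100899 and 113016 normalized counts, against 36.1 to 14509 in the 14. Of the 14, ET replicate 1 and PF replicate 2 had the highest sums of 10 choroid plexus genes (20908 and 23217, against 2854 to 6575 in the rest), and AD replicate 6 had a pineal gene sum of 14035 (at most 111 in the others). A sum of 6 hippocampal neuron genes was lowest in ET replicate 1 (7710) and AD replicate 6 (9529) and highest in ET replicate 3 (16581) and PF replicate 3 (17031). Since this is bulk tissue, fewer astrocytes and less RNA per astrocyte cannot be told apart.

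All 10 genes were well above 0 in every library. Their summed normalized count was 79497 to 91677 in ET, 74699 to 90064 in PF and 78360 to 87883 in AD over the 14 libraries, and these ranges overlapped.

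Upstream sequence was examined for the genes whose values varied together or most widely. RefSeq promoters on the build GRCr8 were matched for 9 of the 10 genes (15 annotated starts), all but Sox9. Each line gives the 250 bases before a start, read 5′ to 3′ on the gene's own strand. Capitals mark the searched letters, on either strand: TTGGCA (half-site of the NFI factors of astrocyte development), GGGCGG (GC box), ACAAT (SOX core) and TTCNNNGAA (STAT, with no match in these 4 sequences). The S100b and Glul sequences are shown because these genes varied together between libraries, the Gjb6 sequence because it holds the same letters at a similar distance, and the fourth because Slc1a2 varied more than the other 9 genes.
S100b, chr20:12381082-12381331, minus strand: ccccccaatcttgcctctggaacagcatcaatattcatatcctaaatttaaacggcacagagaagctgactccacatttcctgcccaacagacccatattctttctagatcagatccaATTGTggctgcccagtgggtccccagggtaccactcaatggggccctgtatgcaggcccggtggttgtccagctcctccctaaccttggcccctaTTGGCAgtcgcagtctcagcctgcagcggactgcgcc
Glul, start 2, chr13:68575816-68576065, plus strand: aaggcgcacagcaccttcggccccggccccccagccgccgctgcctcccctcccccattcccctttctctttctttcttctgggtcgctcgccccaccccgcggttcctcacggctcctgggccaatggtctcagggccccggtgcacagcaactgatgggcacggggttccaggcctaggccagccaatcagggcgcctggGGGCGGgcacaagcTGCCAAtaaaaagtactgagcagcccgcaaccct
Gjb6, start 1, chr15:35408963-35409212, minus strand: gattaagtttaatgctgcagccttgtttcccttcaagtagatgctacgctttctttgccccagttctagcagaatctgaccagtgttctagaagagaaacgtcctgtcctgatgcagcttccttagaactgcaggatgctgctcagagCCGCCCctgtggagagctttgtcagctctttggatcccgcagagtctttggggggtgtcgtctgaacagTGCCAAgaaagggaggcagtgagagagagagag
Slc1a2, start 1, chr3:109459859-109460108, plus strand: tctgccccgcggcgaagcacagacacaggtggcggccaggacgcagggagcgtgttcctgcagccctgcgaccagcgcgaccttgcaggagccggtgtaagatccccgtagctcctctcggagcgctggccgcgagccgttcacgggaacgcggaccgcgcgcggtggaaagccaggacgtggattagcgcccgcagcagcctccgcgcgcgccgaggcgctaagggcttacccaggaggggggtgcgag

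The NFI half-site letters stood 37 bases before the S100b start, 34 before the second Glul start and 33 before the first Gjb6 start, counted from the first base of the match. The other annotated start of Glul and that of Gjb6 held no match. Of 33469 rat promoters, 12.02% held TTGGCA anywhere in 250 bases and 0.269% held it at 33 to 37 bases before the start, a range set after these matches were seen. Of the 15 promoters of the 9 matched genes, 6 held it, and 3 of these are overlapping windows of Slc1a3. GGGCGG was found in 6 of the 15 (30.47% of all promoters), ACAAT in 1 (30.02%) and TTCNNNGAA in 0 (7.667%). The first Slc1a2 start held 33 CG dinucleotides and was 71.2% G or C, and the second held 2 and was 45.6%, against medians of 5 and 51.2% over all promoters. These are matches of letters, and binding was not measured.

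The first question was whether the ethanol diet moved astrocyte transcripts relative to the pair-fed and the chow-fed controls. No difference by diet passed either threshold for any of the 10 genes. Under the study's threshold (adjusted p below 0.01 and a log2 fold change beyond 1.5 in either direction) 0 of 10 were called in ET against PF, where 2.17% of all genes tested were called. In ET against AD the same count was 0 of 10, with 0.0127% of genes called, and in PF against AD it was 0 of 10, with 2.05%. At an adjusted p below 0.05 with no minimum fold, 0 of 10 were called in each comparison, against 4.13%, 0.0127% and 5.17% of all genes. With edgeR's quasi-likelihood test, 1 of 10 had an unadjusted p below 0.05 in ET against PF (Gfap), 1 of 10 in ET against AD (Aldh1l1) and 0 of 10 in PF against AD, where 11.9%, 2.74% and 16.4% of all genes did. DESeq2 also called 0 of 10 in each.

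The differences were small as well as uncalled. The median log2 fold change of the 10 genes was 0.02 in ET against PF, -0.01 in ET against AD and -0.04 in PF against AD, beside 0.01, 0.00 and 0.00 over all genes tested. Apart from Slc1a2, every 95% confidence interval of a diet difference lay within 0.48 of 0 on the log2 scale, so the study's fold limit of 1.5 was outside it. For 0 of the 10 did the libraries of one diet lie wholly above those of another, as they did for 6.78% of all genes tested in ET against PF, 1.19% in ET against AD and 6.60% in PF against AD. The 3 comparisons share libraries and are not independent of each other.

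**Figure D1:**
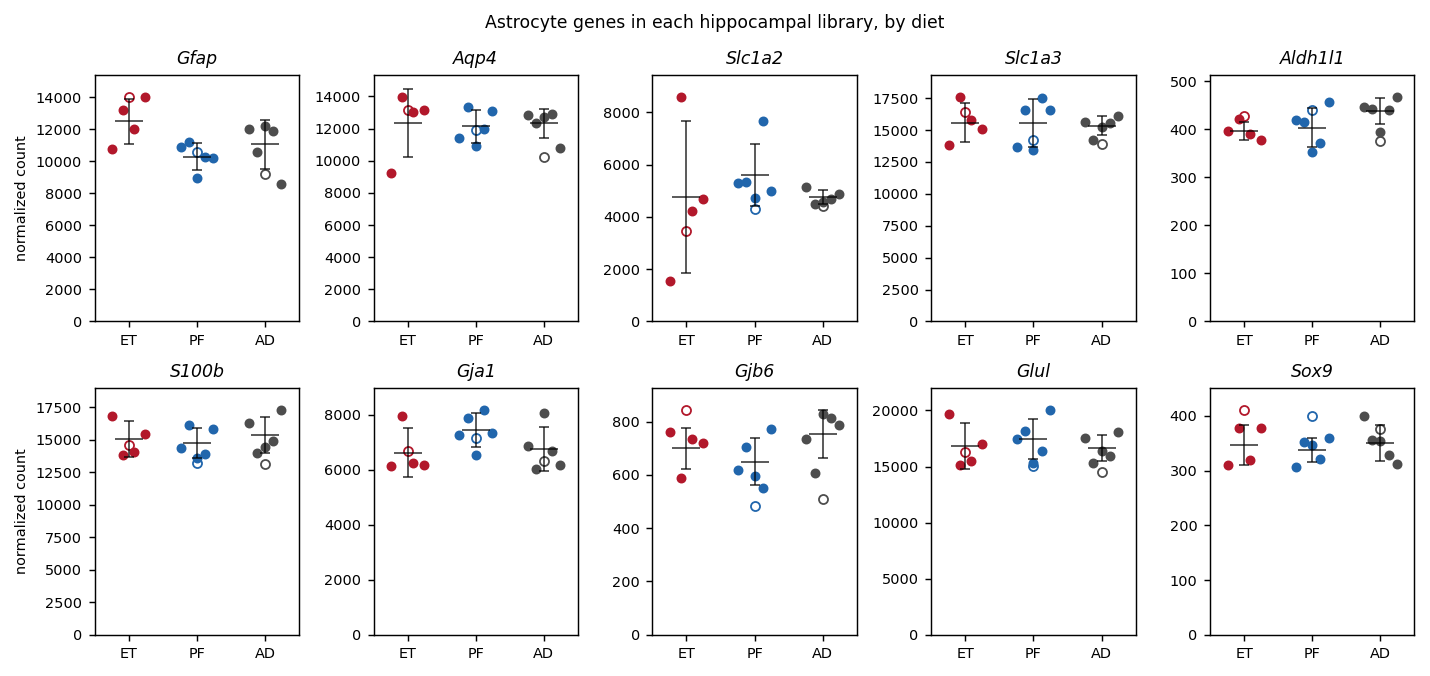
Normalized count (linear axis from 0) of each of the 10 genes in each library, by diet. Filled points are the 14 libraries of the fits, open points the 3 left out, and black marks the mean ± SD of the filled points. The diets overlap in every panel, and Slc1a2 in ET runs from 1535 to 8594.

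**Figure D2:**
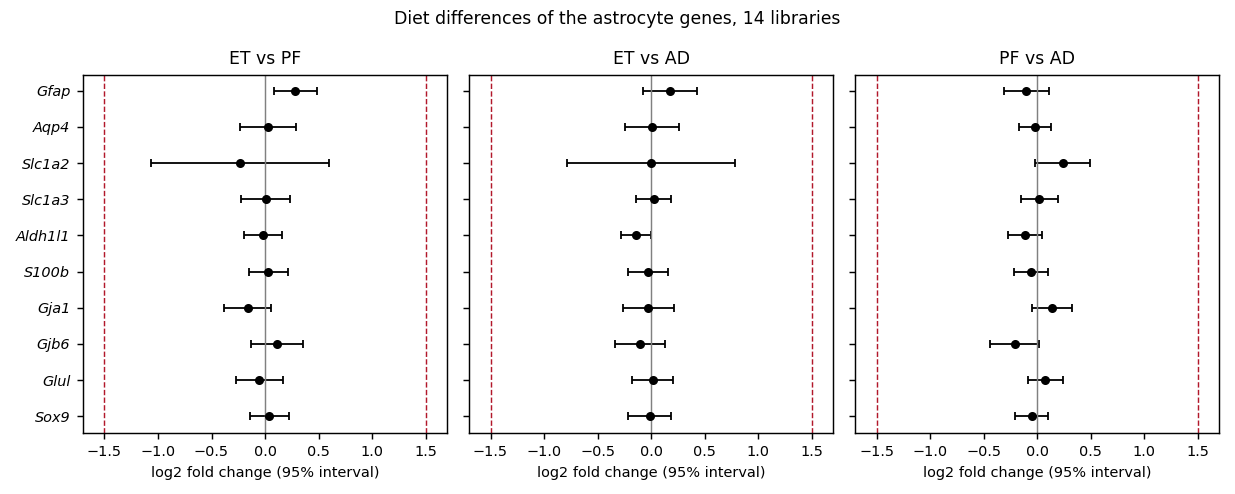
Log2 fold change of each gene in the 3 diet comparisons over 14 libraries, with its 95% confidence interval. The red dashed lines mark the study's fold limit of 1.5, which no interval reaches, and the Slc1a2 intervals in both ET comparisons are the widest.

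Gfap came nearest to a difference. Its normalized count in ET was 10803, 13216, 12060.5 and 14025 (replicates 1, 3, 4 and 5). In PF it was 10873 in animal 11f5 and 11206, 8950, 10301 and 10204 in replicates 1, 2, 3 and 6, and in AD 12057, 10600.4, 12245, 11879 and 8605 in replicates 1, 2, 3, 5 and 6. Of the ET libraries, 3 were above every PF library, and replicate 1 fell inside the PF range. The mean was 12526 ± 1404 (SD, n = 4) in ET, 10307 ± 863 (n = 5) in PF and 11077 ± 1525 (n = 5) in AD. ET over PF was 1.22-fold, a log2 fold change of 0.28 (SE 0.09, 95% interval 0.08 to 0.48), with an adjusted p of 0.16 from edgeR. With all 17 libraries it was 0.31 (SE 0.08), with an adjusted p of 0.044 from the same test, the 1 alternative in which it was called, and 5.46% of all genes tested were called in that fit (1.25% as higher in ET). That fit adds 2 libraries rich in choroid plexus RNA, where Gfap was 14030.5 (ET replicate 2) and 10615 (PF animal 11f6). ET over AD was 0.18 (SE 0.11) and PF over AD -0.10 (SE 0.10), for which edgeR gave an adjusted p of 1.00 and 0.66, so AD stood between the liquid diets and neighbours in that order did not differ beyond their spread.

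The summed normalized count of 7 oligodendrocyte genes moved in the same direction. It was 279433 to 363602 in the 4 ET libraries and 204388 to 279951 in the 5 PF libraries. In ET over PF the median log2 fold change was 0.52 for 8 ependyma genes, 0.35 for 6 thalamus and habenula genes and 0.28 for 6 meninges genes, and the ranges of their summed counts overlapped. The part of these cells in the Gfap difference was not tested. In the left hippocampi alone the Gfap difference was 0.32 (SE 0.11, adjusted p 0.26). With replicate number as a block, and so without PF animal 11f5, it was 0.16 (SE 0.15, adjusted p 0.89 from edgeR).

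Aqp4, the water channel of astrocyte endfeet, had nearly equal means, with 12358 ± 2113 (SD, n = 4) in ET, 12139 ± 1039 (n = 5) in PF and 12322 ± 885 (n = 5) in AD. Within ET it was 9248 in replicate 1 and 13967, 13054 and 13164 in replicates 3, 4 and 5. In AD replicate 6 was low in the same way, at 10790.5 beside 12338 to 12906 in the other 4. ET over PF was 0.03 (SE 0.12, 95% interval -0.23 to 0.29). Without ET replicate 1 it was 0.14 (SE 0.08), and with replicate number as a block it was -0.15 (SE 0.19).

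Slc1a2, the transporter that performs most glutamate uptake in the forebrain, differed more between littermates than between diets. In ET its normalized count was 1535 in replicate 1, 8594 in replicate 3, 4221 in replicate 4 and 4671 in replicate 5. In PF it was 5287 in animal 11f5 and 5322, 4725, 7676 and 4986 in replicates 1, 2, 3 and 6. In AD it was 5153, 4514, 4572, 4690.4 and 4862 in replicates 1, 2, 3, 5 and 6. The ET libraries were 5.60-fold apart from lowest to highest, the PF libraries 1.62-fold and the AD libraries 1.14-fold. The lowest and the highest values of the 14 were thus both in ET, and both were from females of 1 litter.

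The SD of log2 Slc1a2 was 1.03 in ET, 0.28 in PF and 0.077 in AD. Pooled within diets it was 0.56, which placed it at rank 62 of 9211 genes with a mean normalized count of at least 200, or the top 0.673%, where the median SD was 0.118. The other 9 genes ranked from 1934 to 5197. ET over PF was -0.23 (SE 0.37, 95% interval -1.06 to 0.60, adjusted p 0.93), ET over AD 0.00 (SE 0.35, adjusted p 1.00) and PF over AD 0.24 (SE 0.12, adjusted p 0.35), all from edgeR. These values hang on single libraries. Without ET replicate 1 the ET to PF difference was 0.06, without ET replicate 3 it was -0.69 (adjusted p 0.37 from edgeR), and without PF replicate 3 the PF to AD difference was 0.10.

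Slc1a3, the transporter that is also abundant in the glia of the cerebellum and the retina, was far steadier. Its normalized count in ET was 13864, 17592, 15796 and 15086 in replicates 1, 3, 4 and 5. It was 13642 in PF animal 11f5 and 16573, 13405, 17531 and 16547 in PF replicates 1, 2, 3 and 6, and 14188 to 16107 in AD. ET replicate 3 and PF replicate 3, the 2 libraries with the highest Slc1a2 of the 14, also had the highest Slc1a3, and ET replicate 1 was the lowest of its diet for both. The ET to PF difference of Slc1a3 was 0.01 (SE 0.10, 95% interval -0.22 to 0.23).

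**Figure D3:**
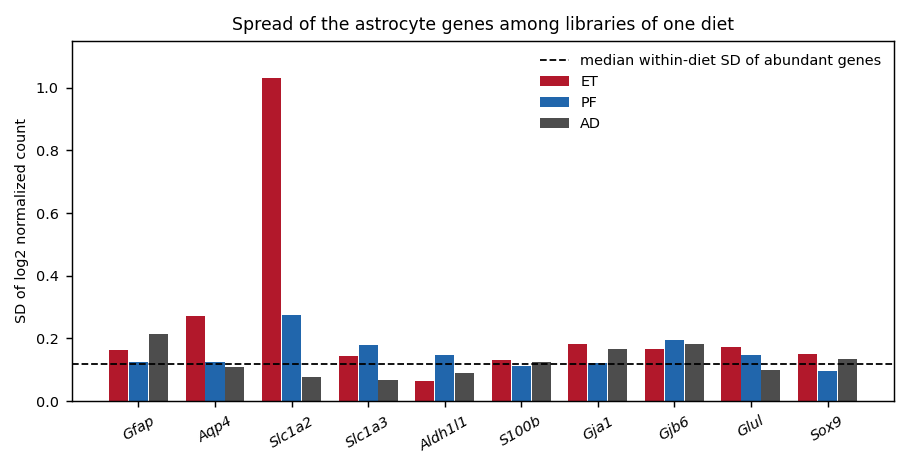
SD of the log2 normalized count of each gene among the libraries of each diet (ET n = 4, PF n = 5, AD n = 5). The dashed line is the median within-diet SD of 9211 genes with a mean of at least 200, 0.118. The ET bar of Slc1a2 stands at 1.03, and every other bar is at or below 0.28.

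Other genes shared the Slc1a2 pattern, which was looked for after its values were seen. Over the 14 libraries, with diet means subtracted, Igf1r (the IGF1 receptor) had a Pearson r of 0.99 with Slc1a2, and Hipk2 (a nuclear kinase) had 0.99. Igf1r was at 247 in ET replicate 1 and 576 in ET replicate 3, and Hipk2 at 201 and 981. Rbx1, a ubiquitin ligase subunit, went the other way (r = -0.96), with 1908 in ET replicate 1 and 1288 in ET replicate 3. Without ET replicates 1 and 3, r over the other 12 libraries was 0.94 for Igf1r, 0.93 for Hipk2 and -0.80 for Rbx1. All 3 genes were picked from the top of a ranking of all genes tested, so high values of r were bound to be found.

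The first principal component of all genes tested, with diet means subtracted, held 31.0% of the variance, with ET replicate 1 at its low end (-38.4) and AD replicate 6 next (-24.6), and with ET replicate 3 at its high end (24.8). The Pearson r with it over 14 libraries was 0.77 for Aqp4 (rho 0.62), 0.74 for Slc1a2 (rho 0.62) and 0.59 for Slc1a3 (rho 0.60), and it was -0.67 for S100b (rho -0.51) and -0.66 for Glul (rho -0.54). Permutation p-values of these 5, adjusted over the 10 genes, were 0.067 each. Gja1 (r = 0.57, rho 0.72) and Gfap (r = 0.55, rho 0.42) followed, with an adjusted permutation p of 0.094 each for r. Without the 2 libraries farthest along the component, r was 0.52 for Aqp4, 0.40 for Slc1a2, 0.39 for Slc1a3, -0.52 for S100b and -0.43 for Glul, so each was weaker without them. The hippocampal neuron sum given above was lowest in the same library as Slc1a2 and highest in the same 2 libraries, but in AD replicate 6, where that sum was 9529, Slc1a2 was at 4862, inside the AD range. That sum includes Zbtb20, also counted among the gliogenic genes below, which ran from 1595 to 6387 in ET and 3140 to 5609 in PF. The part of tissue makeup in these values was not tested.

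Glul, glutamine synthetase, and S100b, a calcium-binding protein that astrocytes release, did not differ by diet but rose and fell together between animals. Glul was at 19644, 15120, 15458 and 17043 in ET replicates 1, 3, 4 and 5, and S100b at 16810, 13843, 14015 and 15409 in the same libraries. In PF, Glul was at 17477 in animal 11f5 and 18212, 15283, 16427 and 20016 in replicates 1, 2, 3 and 6, and S100b at 14347, 16092, 13585, 13885 and 15814. In AD, both were highest in replicate 6 (18069 for Glul and 17251 for S100b) and lowest in replicate 2 (15304 and 13989). Within ET the order of the libraries was the reverse of that for Slc1a2 at both ends, with replicate 1 highest and replicate 3 lowest.

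With diet means subtracted, Pearson's r of S100b with Glul was 0.92 and Spearman's rho 0.94 over 14 libraries. Of the 45 pairs among the 10 genes, it was the 1 pair that passed after adjustment (adjusted permutation p 0.0022 for r and 0.0018 for rho). Without the 2 libraries farthest from the S100b median, r was 0.89, and without ET replicates 1 and 3 it was also 0.89. Gjb6, the third gene with NFI half-site letters close to its start, had an r of 0.68 with Glul and 0.62 with S100b (adjusted permutation p 0.13 and 0.21). Slc1a3, with the same letters 85 to 106 bases before its starts, had an r of 0.01 with Glul and 0.08 with S100b. Without ET replicates 1 and 3 both values were 0.47. Aldh1l1, without these letters, had an r of 0.52 with Glul and 0.50 with S100b (adjusted permutation p 0.28 each). Without the same 2 libraries these were 0.75 and 0.67. Any bearing of the letters on these correlations was not tested. Across the 45 pairs, 29 correlations were positive and the median r was 0.19. Gfap with Aqp4 (0.74), Slc1a2 with Slc1a3 (0.65) and Slc1a3 with Gja1 (0.64) followed, with adjusted permutation p-values of 0.057, 0.13 and 0.13. Slc1a2 with Aqp4 had an r of 0.75, which was 0.02 without ET replicates 1 and 3.

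**Figure D4:**
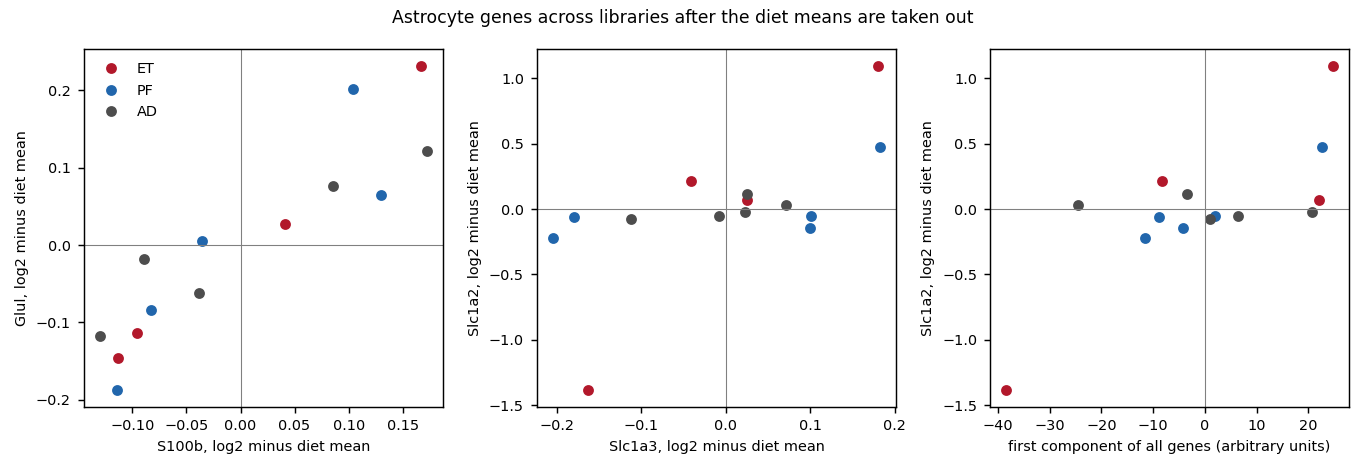
Each point is 1 of the 14 libraries, as log2 normalized count minus the mean of its diet. S100b and Glul lie along a line (r = 0.92, left), while Slc1a2 against Slc1a3 (middle) and against the first principal component of all genes in arbitrary units (right) is drawn out by ET replicate 1 at the bottom and ET replicate 3 at the top. The r of Slc1a2 with Slc1a3 was 0.65, and 0.59 without those libraries.

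By diet, Glul averaged 16816 ± 2063 (SD, n = 4) in ET, 17483 ± 1796 (n = 5) in PF and 16640 ± 1139 (n = 5) in AD. The ET to PF difference was -0.05 (SE 0.10, 95% interval -0.28 to 0.17) and that of S100b 0.03 (SE 0.08, 95% interval -0.15 to 0.21). Without ET replicate 1 and PF replicate 2, the 2 libraries with the highest choroid plexus sums, these were -0.18 and -0.06, and neither was called.

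The gap junction genes differed from each other in their order by diet, and neither passed a threshold. Gja1 (the main connexin of astrocytes) was at 6127, 7960.4, 6249 and 6189 in ET replicates 1, 3, 4 and 5, so 3 ET libraries were below the 5 PF libraries (6540 to 8168) and replicate 3 was among them. ET over PF was -0.16 (SE 0.10, adjusted p 0.62 from edgeR), and it was -0.26 without ET replicate 3 (adjusted p 0.14). AD was at 6022 to 8058, and PF over AD was 0.14 (SE 0.08, adjusted p 0.46 from edgeR).

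Gjb6, its partner in the same junctions, was lowest in PF. It averaged 700.4 ± 76.8 (SD, n = 4) in ET, 649 ± 88.6 (n = 5) in PF and 753 ± 89.6 (n = 5) in AD, with ranges of 588 to 760.1, 553 to 773 and 606 to 827. PF over AD was -0.21 (SE 0.10, adjusted p 0.35 from edgeR) and ET over PF 0.11 (SE 0.11, adjusted p 0.84). In left hippocampi alone these were -0.31 and 0.25, for which edgeR gave an adjusted p of 0.14 and 0.33. Over all alternatives PF over AD ran from -0.31 to -0.16 and ET over PF from 0.04 to 0.25. Gjb6 was also the 1 gene of the 10 with an unadjusted p below 0.05 between sides (1.78% of all genes), with right over left at 0.26 (SE 0.10, adjusted p 1.00 from edgeR). Of the 14 libraries 3 were of the right hippocampus, of which PF had 2, AD 1 and ET 0.

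Aldh1l1, a folate enzyme used as a general astrocyte marker, was the tightest of the 10 in ET, at 396, 421, 391 and 378. The AD libraries were at 446, 442, 395, 439 and 467 (replicates 1, 2, 3, 5 and 6), so 4 of the 5 were above every ET library and replicate 3 was not. ET over AD was -0.14 (SE 0.06, adjusted p 1.00 from edgeR), and with all 17 libraries it was -0.09. PF ran from 353 to 457 and spanned both. Sox9, a transcription factor that keeps astrocyte identity, averaged 347 ± 36.4 (SD, n = 4) in ET, 337 ± 22.1 (n = 5) in PF and 350.2 ± 33.3 (n = 5) in AD, and its ET to PF difference was 0.04 (SE 0.08, 95% interval -0.14 to 0.22).

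The 3 libraries outside the fits were compared with the ranges of their own diets. The share of all genes outside these ranges was not counted, so the counts below have no background to be read against. AD replicate 4 was below the AD range for 7 of 10 genes and within it for 3, with Gjb6 at 511 (AD 606 to 827) and Aqp4 at 10230.3 (10790.5 to 12906). PF animal 11f6 was below the PF range for 4 genes, above for 1 and within for 5, with Gjb6 at 482. ET replicate 2 went up instead, above the ET range for 4 genes and within it for 6, with Gjb6 at 843 and Sox9 at 410.4. It was the 1 right hippocampus of ET, set against 4 left ones. Choroid plexus RNA was high in all 3, and its part in these values was not tested. Against the median of their own diet, Sox9 was above in all 3 (0.24, 0.20 and 0.09 on the log2 scale for ET replicate 2, PF animal 11f6 and AD replicate 4), and Slc1a2 was below in all 3 (-0.36, -0.29 and -0.09).

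Related lists were examined in the same fits, and nearly all of their genes were also uncalled at an adjusted p of 0.05. Of 21 further genes of the glutamate-glutamine cycle, 0 passed in any diet comparison. The smallest p in ET against PF belonged to Slc17a6, a vesicular glutamate transporter of thalamic and other subcortical neurons (0.51, SE 0.24, adjusted p 0.43 from edgeR). Of 13 genes of ion, water and transmitter homeostasis, 1 was called higher in ET over PF. In that comparison 4.13% of all genes were called, 87 of 16068 as higher. The gene was Slc6a9, the glial glycine transporter, at 0.33 (SE 0.08, adjusted p 0.040 from edgeR), with 0.17 in ET over AD and -0.16 in PF over AD, neither passing. Of 29 further astrocyte identity genes and 23 tested of 29 reactive astrocyte genes, 0 passed in any comparison, and their medians in ET over PF were 0.02 and 0.02, beside 0.01 over all genes.

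Of 8 other connexins, 0 passed, but their median was 0.19 in ET over PF and -0.20 in PF over AD. With all 17 libraries 2 of the 8 were called higher in ET over PF, with a median of 0.34, where 1.25% of all genes were. Of 18 genes of gliogenic transcription, 1 was called lower in PF against AD. In that comparison 5.17% of all genes were called, 135 of 15960 as lower. The gene was Olig2, which specifies the oligodendrocyte lineage, at -0.34 (SE 0.09, adjusted p 0.045 from edgeR). Unadjusted p was below 0.05 in edgeR for 7 of the 18 there, beside 16.4% of all genes. At an adjusted p below 0.05, 0 of the 18 passed in the other comparisons.

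Marker lists of other cells gave the setting. In ET over PF the 7 oligodendrocyte genes had a median log2 fold change of 0.41 (with all 17 libraries 5 of 7 were called higher, with a median of 0.40), and in PF over AD -0.29 (1 lower, Mag, a myelin adhesion protein, at -0.40, adjusted p 0.037 from edgeR). The medians of 7 microglia genes were -0.02 in ET over PF and 0.09 in PF over AD. In the 9 neuron, 4 oligodendrocyte precursor, 5 endothelium, 6 meninges, 8 ependyma, 10 choroid plexus, 6 thalamus and habenula, 5 hippocampal neuron genes and the 1 pineal gene tested, 0 were called in any diet comparison. In ET against PF, 4 of 8 ependyma and 2 of 6 thalamus and habenula genes had an unadjusted p below 0.05 in edgeR, beside 11.9% of all genes. Of the 10 choroid plexus genes 0 did in ET against PF, 4 in ET against AD (median 1.09, beside 2.74% of all genes) and 3 in PF against AD (median 0.84, beside 16.4%).

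Sex was compared in ET and PF only, because the sex labels of 2 AD libraries, replicates 1 and 2, went against the Y-linked counts. Of the 10 genes 0 were called between males and females with diet as a covariate, where 0.0436% of all genes were. Values ran from -0.20 (Slc1a2, SE 0.39) to 0.14 (Gjb6, SE 0.11), and 0 had an unadjusted p below 0.05 in edgeR (1.87% of all genes). The Slc1a2 value was 0.36 without ET replicate 3 and -0.48 without ET replicate 1. For the interaction of sex and diet 0 of 10 were called (0% of all genes), with 0 at an unadjusted p below 0.05 in edgeR (1.36% of all genes). The largest was Aldh1l1, at -0.29 (SE 0.15). Between sides 0 of 10 were called (0% of all genes), with 9 of 10 values above 0 and a median of 0.11 beside 0.00 over all genes, and DESeq2 called 0 in the comparisons of sex and side.

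The pattern of the 10 genes as a set was summarised by the mean of their z-scores over the 14 libraries with diet means subtracted. It was lowest in PF replicate 2 (-1.01), which had the highest choroid plexus sum of the 14, and highest in PF replicate 6 (0.77) and PF replicate 1 (0.64), which were the right hippocampi of PF. AD replicate 3, the other right hippocampus, was at 0.16, below 3 left libraries, ET replicate 3 (0.55), AD replicate 1 (0.50) and ET replicate 5 (0.25). The 5 genes outside the set with the most similar pattern were Igdcc4 (r = 0.92), Cspg4 (0.90), Golm1 (0.90), Eif4ebp2 (0.87) and Garem2 (0.86), each over 14 libraries.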

How the data were processed

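Hippocampal RNA of 17 rats was sequenced as stranded paired-end mRNA libraries, with 3 technical replicates each. The authors trimmed reads with fastp, aligned them to mRatBN7.2 with Bowtie2 2.4.2 and counted exon fragments per gene with featureCounts 2.0.1 (minimum mapping quality 10, reads allowed to count for several features). The strand setting and annotation release are not given in the sources used here. The deposited values are fragment counts averaged over the technical replicates and not normalized, and they were handled like expected counts since 53.3% were whole numbers (within 0.01). Totals were 10853947 to 17498392 per library.

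Averages were rounded, genes were filtered with filterByExpr, libraries were scaled by TMM, and differences were tested by quasi-likelihood in edgeR 4.0.16 (R 4.3.3), with Benjamini-Hochberg adjustment over all genes tested. Fits used the 14 libraries of the study's final analysis. Groups, sex and side came from the sample labels. PF animals 11f5 and 11f6 could not be tied to a replicate number, so their names in the table were used. DESeq2 1.42.0 and the other alternatives are given in the closing section. Both tools were tested on simulated counts. Correlations used log2(normalized count + 1) with diet means subtracted, and 100000 permutations of libraries within diets, two-sided. Other statistics used Python 3.11.15, pandas 2.3.3 and scipy 1.17.1, and plots matplotlib 3.10.9. Promoter sequences are RefSeq's on GRCr8, a later build than the authors', so no position was joined to the counts. No pair of libraries of a diet (40 pairs) agreed within sampling noise (smallest chi-square per gene 8.64).

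The 10 genes, the lists and the thresholds were chosen with earlier results of these data known. Named are the 10 genes, the genes of each list with the smallest p (those passing, otherwise the first), the 5 genes most like the set in pattern, and markers of libraries that stand apart, with further genes said to be chosen after their values were seen. Lists covered the glutamate-glutamine cycle, homeostasis, astrocyte identity, other connexins, gliogenic transcription, reactive astrocytes and markers of other cells. Gene lengths and protein sequences were not used here. Some genes of the lists are not reported here by name.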

Additional observations from a re-analysis of the deposited data

Results flagged for a closer look

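In 30 groups (10 genes in 3 diets) the highest and lowest library were set against the others of the diet with Dixon's criterion, which chance meets in about 1 group in 20. It marked 4 values. Aqp4 was low in ET replicate 1, at 9248 normalized counts beside 13054 to 13967 in the other 3 ET libraries. Aqp4 was low in AD replicate 6, at 10790.5 beside 12338 to 12906. Slc1a2 was high in PF replicate 3, at 7676 beside 4725 to 5322. Gja1 was high in ET replicate 3, at 7960.4 beside 6127 to 6249. Slc1a2 in ET, with values far out at both ends, was not marked.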

How the results depend on the processing

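The count of the 10 genes called was 0 in every comparison and under every alternative run, with 1 exception. With all 17 libraries, 1 of 10 (Gfap, log2 fold change 0.31) was called at an adjusted p below 0.05 in ET against PF, beside 5.46% of all genes in that fit. For that difference the adjusted p over the alternatives ran from 0.044 to 0.89 and the log2 fold change from 0.16 to 0.35. Alternatives were DESeq2, median-of-ratios scaling, no filter, summed technical replicates, 1 fit of the 3 diets, sex as a covariate, the replicate block, all 17 libraries, left hippocampi alone, leaving out each replicate and, added after the data were seen, leaving out ET replicate 1 and PF replicate 2. Sex as a covariate was run for ET against PF only, and fewer alternatives were run for the comparisons of sex and side. Of 560 alternative values of the diet differences, 539 lay within 1 standard error of the reported value, 20 moved by more and 1 newly passed. Among uncalled values 67 changed sign. Of 200 values for sex and side, 6 moved by more than 1 standard error and 19 changed sign. Slc1a2 in ET against PF ranged from -0.80 to 0.06. Whether replicate numbers pair the animals could not be decided from so few pairs. Deviations of same-numbered libraries correlated at 0.28 on average in ET against PF (2 pairs, -0.02 and 0.58), -0.06 in ET against AD (3) and -0.03 in PF against AD (4). The 18 other pairs of ET against PF averaged -0.03 and reached at most 0.45. With the replicate block 0 of 10 were called in each, and genes called at an adjusted p below 0.05 were 359, 2 and 718 in place of 664, 2 and 825. PF animal 11f5 has no number and is missing from the block fits with PF, and without it and without a block the counts were 549 (ET against PF) and 694 (PF against AD). The smallest ET group had 4 libraries, which limits what differences can be seen, as does the spread of Slc1a2.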
